A study of Saccharomyces cerevisiae with 3 samples.

Results

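The genes described here are 39 genes of glycolysis and the pentose phosphate pathway of budding yeast, chosen by name, of 6002 protein-coding genes in all. They comprise the enzymes of every glycolytic step with their paralogues, the enzymes that set the level of the activator of phosphofructokinase, phosphoglucomutases, both branches of the pentose phosphate pathway, and the transcription factors GCR1, GCR2 and TYE7. Open chromatin was mapped by DNase-seq, which sequences the ends that DNase I cuts in isolated nuclei; stretches rich in cuts are listed as hypersensitive sites. The libraries were 1 from an SBA1 deletion (labelled sba1-/-), 1 from a GCN5 deletion (labelled gcn5-/-) and 1 from the wild-type parent. SBA1 encodes the yeast p23 co-chaperone of Hsp90, and GCN5 the histone acetyltransferase of the SAGA complex. All strains were BY4741 of mating type a, the deletions were isolates from a commercial supplier, and further isolates were not analysed here. All were grown in rich medium with 2% glucose. The series title names the joint action of both proteins on open chromatin as the question.

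Glycolysis turns glucose into pyruvate. In yeast on glucose it carries most of the carbon, and several of its enzymes are among the most abundant proteins of the cell. The pentose phosphate pathway branches off at glucose phosphate: its oxidative branch makes NADPH, and its non-oxidative branch makes ribose phosphate and returns carbon to glycolysis. Many glycolytic promoters are bound by Rap1 and by Gcr1 with its partner Gcr2, and highly transcribed genes are known to have fewer or less stable nucleosomes over their coding sequence.

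For each gene a promoter site was a listed site with at least 1 bp in the 500 bp upstream of the start codon, and coding coverage was the percentage of bases between start and stop codon that lay under listed sites. Positions are on sacCer3. Scores of sites are the authors' values and are compared only within a list. The lists held 2439 sites in sba1-/- cells, 3062 in gcn5-/- cells and 3260 in wild-type cells, with median widths of 350, 261 and 247 bp outside the mitochondrial chromosome. SBA1 had a promoter site in every list, with 1.84% of its coding sequence covered in sba1-/- cells, 0% in gcn5-/- cells and 0% in wild-type cells. GCN5 had a promoter site in gcn5-/- cells alone. Its coding coverage was 29.4% in sba1-/- cells, 0% in gcn5-/- cells and 0% in wild-type cells, so coverage at neither gene checks the labels. As there was 1 library per strain, no difference has a replicate check, no test between strains was made, and read depth is unknown from the lists.

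More of the 39 genes had a promoter site in the deletion strains. A promoter site was listed at 29 genes in sba1-/- cells, 28 in gcn5-/- cells and 21 in wild-type cells. These are 74.4% of the genes in sba1-/- cells (exact Clopper-Pearson 95% interval 57.9 to 87.0), 71.8% in gcn5-/- cells (55.1 to 85.0) and 53.8% in wild-type cells (37.2 to 69.9). The intervals cover counting over genes only. Among all protein-coding genes the shares were 38.7% in sba1-/- cells, 43.9% in gcn5-/- cells and 43.2% in wild-type cells. The share in wild-type cells was thus nearer to that of all genes than the shares in the deletion strains. The excess in sba1-/- cells was smaller where sites counted by their midpoint, with 16 genes in sba1-/- cells, 19 in gcn5-/- cells and 14 in wild-type cells, or 41.0%, 48.7% and 35.9%, against 21.3%, 32.2% and 31.8% of all genes. With each site set to 250 bp the counts were 20, 23 and 18, or 51.3%, 59.0% and 46.2%, against 27.6%, 38.7% and 38.8% of all genes.

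Coding sequence under sites was the larger contrast, and it lay with sba1-/- cells. Over the summed coding sequence of the 39 genes, sites covered 29.6% of bases in sba1-/- cells, 11.9% in gcn5-/- cells and 8.13% in wild-type cells. Over all protein-coding genes they covered 9.44% in sba1-/- cells, 5.22% in gcn5-/- cells and 5.28% in wild-type cells. In sba1-/- cells, 17 of 39 genes, or 43.6% (27.8 to 60.4), had a coverage at least 25 percentage points above wild type, against 11.9% of all protein-coding genes. The same rule took 2 genes in gcn5-/- cells, CDC19 and ZWF1, or 5.13% (0.627 to 17.3), against 2.00% of all. Coverage at least 25 points below wild type was found for 0 of 39 genes in either deletion strain, which allows a share of up to 7.69% by the limit of 3 counts and 9.03% by the exact interval, where 2.43% of all genes were that much lower in sba1-/- cells and 1.02% in gcn5-/- cells. The median difference from wild type over the 39 genes was 13.5 points in sba1-/- cells and 0 in gcn5-/- cells, and over all genes it was 0 in each.

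The size of these values depended on site width as listed. With each site set to a width of 250 bp about its centre, sites covered 11.0% of the 39 genes' coding bases in sba1-/- cells, 5.82% in gcn5-/- cells and 4.29% in wild-type cells, against 3.18%, 2.97% and 3.50% over all genes. The higher share in sba1-/- cells thus remained in the 39 genes at that width. That setting left 3 of the 39 genes at least 25 points above wild type in sba1-/- cells, or 7.69%, against 3.65% of all genes; 1 such site is too short to cover 25% of a gene of median length. The 39 genes were of a median length of 1359 bp and all protein-coding genes of 1200 bp.

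**Figure D1:**
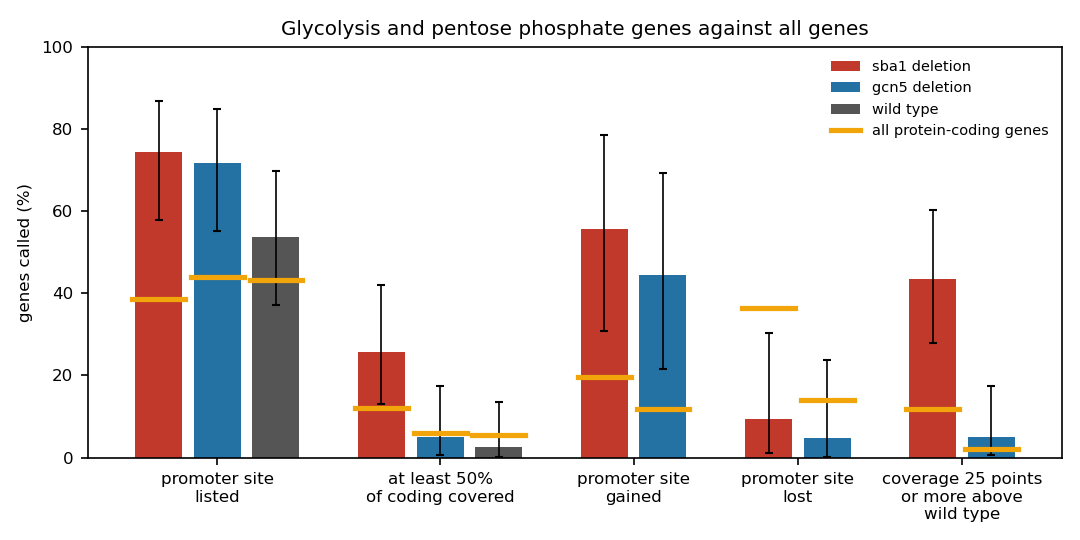
Share of the 39 genes (bars, with exact 95% intervals) and of all protein-coding genes (orange lines) that met each rule, in percent, for sba1-/- cells, gcn5-/- cells and wild type. The bar for coverage at least 25 points above wild type stands at 43.6% in sba1-/- cells, where the line for all genes is at 11.9%.

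At the level of single genes, at least 50% of the coding sequence was covered for 10 genes in sba1-/- cells (25.6%, against 12.0% of all genes). In gcn5-/- cells this held for GLK1 and ZWF1 (5.13%, against 6.05% of all) and in wild-type cells for GLK1 alone (2.56%, against 5.46%). Some coding sequence was covered for 27 genes in sba1-/- cells, 19 in gcn5-/- cells and 14 in wild-type cells, that is 69.2%, 48.7% and 35.9%, against 32.2%, 31.5% and 33.6% of all genes. Against wild type, coverage was higher at 24 genes and lower at 4 in sba1-/- cells, where 24.0% of all genes were higher and 20.6% lower. In gcn5-/- cells it was higher at 13 genes and lower at 7, where 15.5% of all genes were higher and 21.0% lower. For 11 of the 39 genes no coding base lay under a site in any list, namely PFK1, TPI1, GPM2, GPM3, PFK26, FBP26, SOL3, RKI1, NQM1, GCR2 and TYE7. Of these, GPM2, FBP26 and SOL3 had no promoter site in any list either. The highest wild-type coverages were those of GLK1 (82.3%), ZWF1 (35.6%), PGK1 (23.3%), TDH3 (21.1%) and PGI1 (19.9%).

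**Figure D2:**
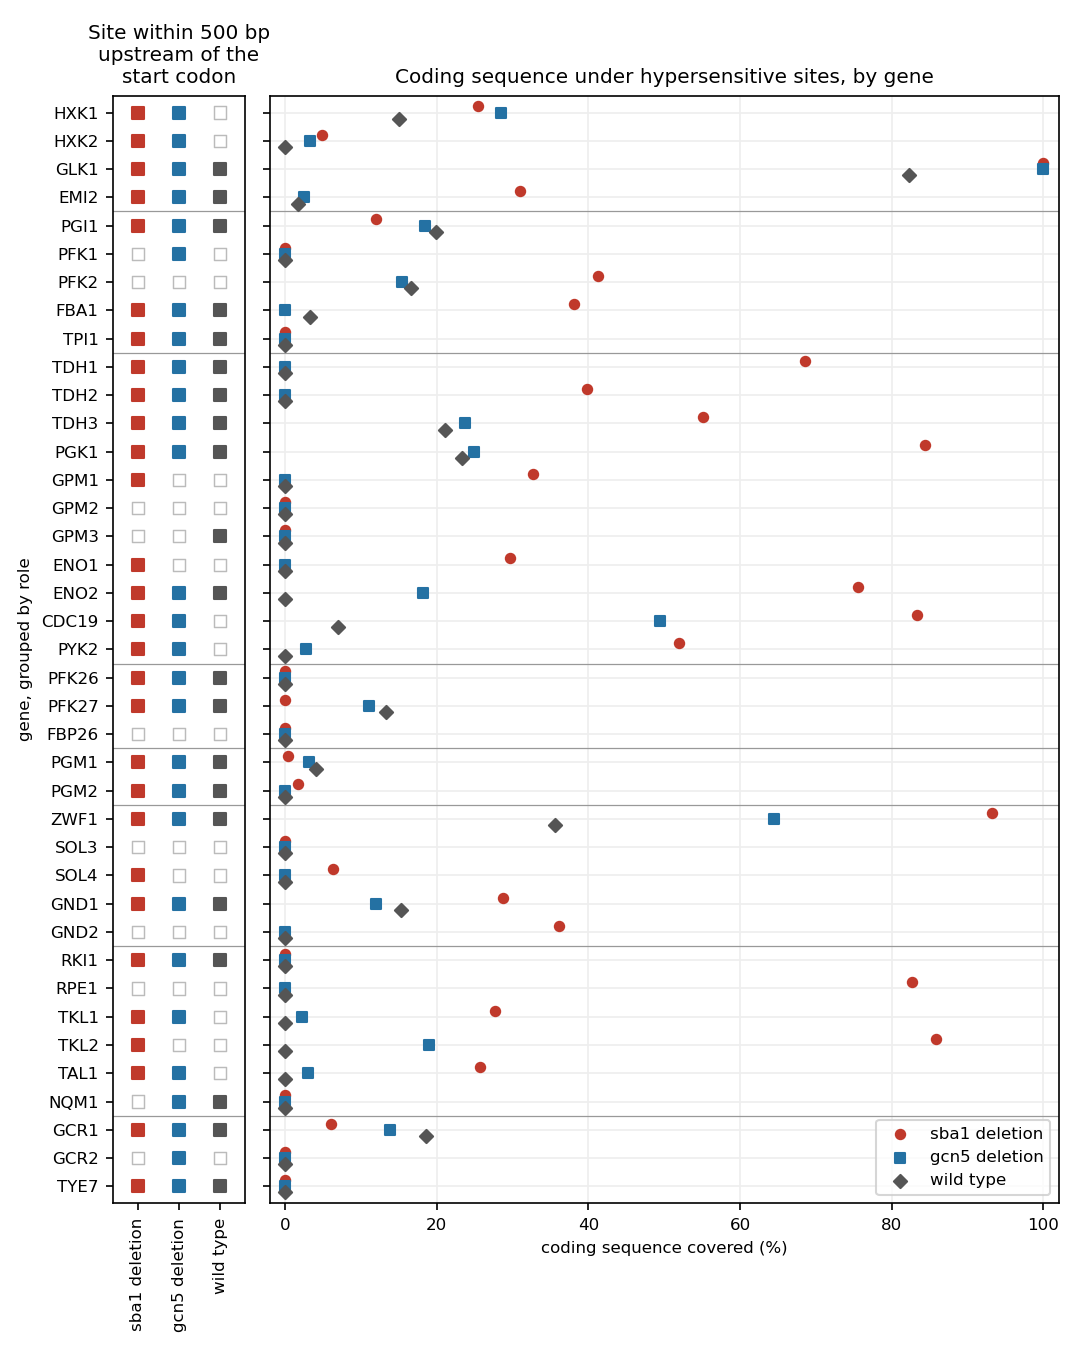
Left, whether a site lay within 500 bp upstream of the start codon (filled square) in sba1-/- cells, gcn5-/- cells and wild type; right, coding sequence covered by sites in percent, 1 point per strain, for the 39 genes in groups by role. In the block from TDH1 to PYK2 the red points of sba1-/- cells lie to the right of the others at 9 of 11 genes, GPM2 and GPM3 being at 0% in every list, while the last block, GCR1 to TYE7, stays at 18.5% or below in every strain.

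The enzymes that phosphorylate glucose all had a promoter site in both deletion lists. HXK2, the main hexokinase on glucose (YGL253W, chromosome VII 23935 to 25395), had a promoter site in both deletion lists and none in wild-type cells. In sba1-/- cells a site at 21831 to 24005, 2175 bp wide, ran from far upstream to 70 bp past the first base of the start codon. In gcn5-/- cells a site at 23465 to 23982 was 518 bp wide. HXK2 coding coverage was low throughout, at 4.86% in sba1-/- cells, 3.29% in gcn5-/- cells and 0% in wild-type cells. HXK1, its glucose-repressed paralogue, likewise had a promoter site in the deletion lists and none in wild-type cells, with coverages of 25.4%, 28.5% and 15.0% in sba1-/- cells, gcn5-/- cells and wild type. HXK1 was thus lower in sba1-/- cells than in gcn5-/- cells, with a difference of -3.09 points.

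GLK1, the glucokinase gene (YCL040W, chromosome III 50838 to 52340), lay mostly or wholly under sites in every list. A site of 5139 bp covered it at 100% in sba1-/- cells, a site of 3249 bp covered it at 100% in gcn5-/- cells, and in wild-type cells a site of 2232 bp and one of 536 bp covered 82.3%. Its paralogue EMI2 kept its promoter site in every list and had a coding coverage of 30.9% in sba1-/- cells, 2.53% in gcn5-/- cells and 1.66% in wild-type cells.

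In upper glycolysis the strains differed at single genes, with no common direction. FBA1, the aldolase gene, was covered at 38.1% in sba1-/- cells, 0% in gcn5-/- cells and 3.33% in wild-type cells. PFK2, which encodes the beta subunit of phosphofructokinase, had no promoter site in any list but was covered at 41.2% in sba1-/- cells, 15.5% in gcn5-/- cells and 16.6% in wild-type cells. Its difference in sba1-/- cells, 24.6 points, was the nearest below the 25-point rule, and that of TAL1, 25.7 points, the nearest above it. PFK1, the alpha subunit gene, had a single promoter or coding site in all the lists, a 65 bp promoter site in gcn5-/- cells at chromosome VII 973968 to 974032, which scored above only 7.61% of that list. PGI1, the phosphoglucose isomerase gene, was covered at 12.0% in sba1-/- cells, 18.4% in gcn5-/- cells and 19.9% in wild-type cells, so it was lower in sba1-/- cells. TPI1, triose phosphate isomerase, had a promoter site in every list, 300 bp wide in sba1-/- cells, 493 bp in gcn5-/- cells and 536 bp in wild-type cells, and no coding coverage.

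Lower glycolysis, the steps after triose phosphate, held 9 of the 17 genes that passed the 25-point rule in sba1-/- cells. Over the 11 genes of this group, sites covered 50.9% of coding bases in sba1-/- cells, 12.6% in gcn5-/- cells and 4.86% in wild-type cells. PGK1, phosphoglycerate kinase (YCR012W, chromosome III 137746 to 138996), had 1 site per list across its start codon. Counted from the first base of the start codon, that site ran from -328 to 1055 bp in sba1-/- cells, from -411 to 311 bp in gcn5-/- cells and from -334 to 290 bp in wild-type cells. The site in sba1-/- cells thus differed from the wild-type one mainly at its downstream edge, and the coverage was 84.4% in sba1-/- cells, 24.9% in gcn5-/- cells and 23.3% in wild-type cells. ENO2, the main enolase gene (YHR174W, chromosome VIII 451327 to 452640), showed a graded pattern. Its site was 1495 bp wide in sba1-/- cells, 638 bp in gcn5-/- cells and 125 bp in wild-type cells, where it stayed upstream of the start codon. ENO2 coverage was 75.5% in sba1-/- cells, 18.2% in gcn5-/- cells and 0% in wild-type cells.

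CDC19, the pyruvate kinase gene used on glucose (YAL038W, chromosome I 71786 to 73288), was covered at 83.3% in sba1-/- cells, 49.4% in gcn5-/- cells and 6.99% in wild-type cells. Nearly all of the cover came from sites that began inside the gene. In sba1-/- cells a site at 72090 to 73423 began 304 bp into the gene and ran past the stop codon. The gcn5-/- cells had sites at 72136 to 72590 and 73034 to 73563 in its place, and wild type had a single 105 bp site in the coding sequence, at 72366 to 72470. The promoter site of sba1-/- cells, 238 bp wide at 71179 to 71416, lay apart from these, and the promoter call in gcn5-/- cells rested on a 36 bp site that took in 3 bp upstream of the start codon. PYK2, the glucose-repressed second pyruvate kinase, was covered at 52.0% in sba1-/- cells, 2.76% in gcn5-/- cells and 0% in wild-type cells.

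The genes for glyceraldehyde phosphate dehydrogenase, TDH1 to TDH3, all had a promoter site in every list. TDH3, the main isoform, was covered at 55.2% in sba1-/- cells, 23.7% in gcn5-/- cells and 21.1% in wild-type cells. TDH2 was covered at 39.8%, 0% and 0% in sba1-/- cells, gcn5-/- cells and wild type. TDH1, the isoform linked to stationary phase, was covered at 68.6% in sba1-/- cells, 0% in gcn5-/- cells and 0% in wild-type cells. In sba1-/- cells each of the TDH genes also had a second site across its stop codon, 197 bp wide at TDH1, 212 bp at TDH2 and 285 bp at TDH3, with none there in the other lists. ENO1, the second enolase gene (YGR254W, chromosome VII 1000927 to 1002240), was covered at 29.6% in sba1-/- cells and 0% in both other lists. Its site in sba1-/- cells, 1776 bp wide, ran from -1387 to 388 bp, and the nearest upstream site ended at -943 bp in gcn5-/- cells and -1000 bp in wild-type cells. The TDH genes, and ENO1 with ENO2, are close copies of each other, and the sources used here do not give how reads that match several copies were placed. Without these 5 genes, 12 genes passed the 25-point rule in sba1-/- cells, where 11.9% of all protein-coding genes did.

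The phosphoglycerate mutase genes were covered at the main isoform alone. GPM1, the active enzyme's gene, was covered at 32.7% in sba1-/- cells, 0% in gcn5-/- cells and 0% in wild-type cells. Its promoter call in sba1-/- cells rested on a 44 bp site that scored above 1.89% of the list. GPM2 and GPM3, paralogues held to be without function, had no coding coverage in any list. GPM3 was the gene with a promoter site in wild-type cells alone, at chromosome XV 223019 to 223203, 185 bp wide, with a score above 18.8% of the wild-type list.

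**Figure D3:**
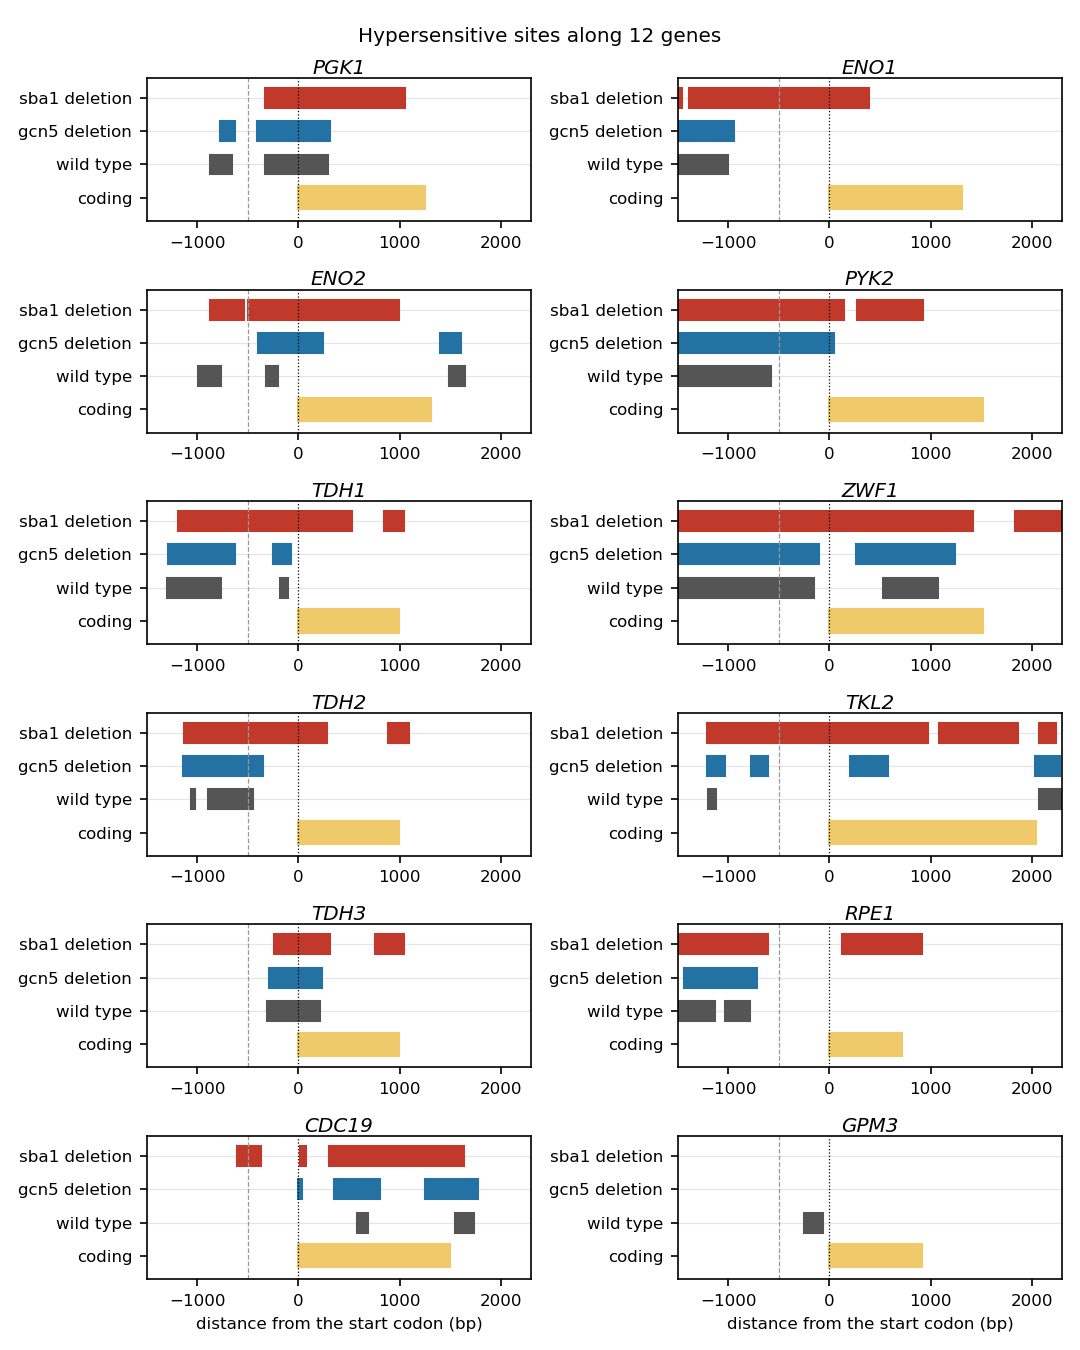
Sites of sba1-/- cells, gcn5-/- cells and wild type along 12 of the genes, in bp from the first base of the start codon (dotted line); the dashed line marks 500 bp upstream and the yellow bar the coding sequence, and sites that run beyond the axis are cut off there. All sites in the range are drawn, those outside the promoter window and gene included. At PGK1 the site across the start codon runs to 1055 bp in sba1-/- cells.

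The regulatory and side enzymes had little coding coverage. PFK26 and PFK27, which make the sugar bisphosphate that activates phosphofructokinase, had a promoter site in every list. PFK27 was the only one of this group with coding coverage, at 0% in sba1-/- cells, 11.1% in gcn5-/- cells and 13.3% in wild-type cells. The phosphoglucomutase genes, which link glycolysis to glycogen and trehalose, also had a promoter site in every list. PGM2, the main isoform, had a widest promoter site of 726 bp in sba1-/- cells, 473 bp in gcn5-/- cells and 132 bp in wild-type cells. At PGM1 the order was the other way round, with 202 bp in sba1-/- cells, 303 bp in gcn5-/- cells and 435 bp in wild-type cells. Coverage of both stayed at or below 4.03%.

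In the oxidative branch of the pentose phosphate pathway, ZWF1 stood out. It encodes glucose phosphate dehydrogenase, the entry enzyme (YNL241C, chromosome XIV 196426 to 197943), and was covered at 93.2% in sba1-/- cells, 64.4% in gcn5-/- cells and 35.6% in wild-type cells. A single site of 3861 bp, at 196529 to 200389, took in promoter and coding sequence in sba1-/- cells. The gcn5-/- cells had separate sites, of 1520 bp at the promoter and 978 bp in the coding sequence, and so had wild-type cells, of 1487 and 541 bp. GND1, the main phosphogluconate dehydrogenase gene, had a promoter site in every list and a coverage of 28.8% in sba1-/- cells, 12.0% in gcn5-/- cells and 15.3% in wild-type cells. GND2, its minor paralogue, had no promoter site in any list and was covered at 36.1% in sba1-/- cells and 0% in both other lists, by 1 site at chromosome VII 1004828 to 1005361. SOL4, a phosphogluconolactonase gene, had a promoter site in sba1-/- cells alone, which covered 11.8% of the window, and a coding coverage of 6.25% there and 0% in both other lists.

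Of the coding bases of the non-oxidative branch, 41.8% lay under sites in sba1-/- cells, 6.10% in gcn5-/- cells and 0% in wild-type cells. TKL2, the minor transketolase gene (YBR117C, chromosome II 474392 to 476437), was covered at 85.8% in sba1-/- cells, 18.9% in gcn5-/- cells and 0% in wild-type cells. Its cover in sba1-/- cells came from a site of 2180 bp, from -1208 to 971 bp, and a second of 783 bp. A 372 bp site gave most of the cover in gcn5-/- cells. TKL1, the main transketolase gene, was covered at 27.7% in sba1-/- cells, 2.20% in gcn5-/- cells and 0% in wild-type cells. TAL1, transaldolase, was covered at 25.7%, 3.08% and 0% in sba1-/- cells, gcn5-/- cells and wild type. TKL1 and TAL1 each had a promoter site in both deletion lists and none in wild-type cells. RPE1, the epimerase gene (YJL121C, chromosome X 190374 to 191090), had no promoter site in any list and was covered at 82.7% in sba1-/- cells and 0% in both other lists. A single 788 bp site at 190179 to 190966 gave this cover. It ran past the stop codon, across the gap of 130 bp and into the convergent gene ALB1. Upstream of RPE1 the nearest site ended at -608 bp in sba1-/- cells, -720 bp in gcn5-/- cells and -789 bp in wild-type cells, outside the promoter window in each. RKI1, the isomerase gene, had a promoter site in every list and no coding coverage. NQM1, the paralogue of TAL1, had a promoter site of 288 bp in gcn5-/- cells and of 198 bp in wild-type cells, and none in sba1-/- cells.

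The transcription factor genes did not share the wide coverage. GCR1, the activator of glycolytic genes, was covered over its gene span, intron included, at 6.01% in sba1-/- cells, 13.9% in gcn5-/- cells and 18.5% in wild-type cells. Around its start codon it had sites of 65 and 187 bp in sba1-/- cells, of 196 and 431 bp in gcn5-/- cells, and a single one of 1012 bp, at chromosome XVI 411818 to 412829, in wild-type cells. TYE7 had a promoter site of 1149 bp in sba1-/- cells, 938 bp in gcn5-/- cells and 979 bp in wild-type cells, and GCR2 had one in gcn5-/- cells alone, 188 bp wide.

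Paralogues did not sort by which isoform was taken here as the main one. That choice was made by name, and use on glucose was not measured. In 12 sets of a main isoform and its paralogues, the main isoform had the higher coding coverage in 6 sets in sba1-/- cells, 6 in gcn5-/- cells and 4 in wild-type cells. The paralogue was higher in 5 sets in sba1-/- cells, 4 in gcn5-/- cells and 3 in wild-type cells, and the rest were equal. Any difference was counted, however small, as for PGM2 at 1.64% and PGM1 at 0.409% in sba1-/- cells. GPM1 over GPM2 and CDC19 over PYK2 ran one way in sba1-/- cells, and TKL2 over TKL1 and TDH1 over TDH3 the other.

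More genes gained a promoter site than lost one in each deletion strain. In sba1-/- cells 10 of the 18 genes without a wild-type promoter site had one, 55.6% (30.8 to 78.5) against 19.7% of all genes without one. Among the 21 that had one in wild-type cells, sba1-/- cells lacked it at 2, GPM3 and NQM1, 9.52% (1.17 to 30.4) against 36.5% of all genes with one. In gcn5-/- cells 8 of 18 had gained a promoter site, 44.4% (21.5 to 69.2) against 11.9%, and 1 of 21, GPM3, had lost it, 4.76% (0.12 to 23.8) against 14.0%. Both sets of counts rest on the same wild-type list. With the site midpoint required in the window, 14 genes had a wild-type promoter site. Of these, 8 lost it in sba1-/- cells, and 10 other genes gained one. With all sites at 250 bp, 6 of 18 lost theirs and 8 other genes gained one. The share of 9.52% lost thus belongs to the main rule and was higher under these rules. The share of all genes that lost one under these rules is not given here. Promoter sites in sba1-/- cells were listed at 38.7% of all genes by the main rule, and at 21.3% and 27.6% under these rules.

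Some of the gains were not sites absent from wild type. Of the 10 gained in sba1-/- cells, 4 overlapped a wild-type site that lay outside the window, at HXK2, ENO1, PYK2 and TKL2. At PYK2 a site of very high score, 3699 bp wide in sba1-/- cells and 3535 bp in gcn5-/- cells, covered the tandem neighbour PUT4, which ends 436 bp upstream of PYK2. In wild-type cells the matching site, at chromosome XV 987042 to 990006, ended 580 bp upstream of PYK2 and so missed the window. The other 6 gained in sba1-/- cells, at HXK1, GPM1, CDC19, SOL4, TKL1 and TAL1, overlapped no wild-type site. Of the 8 gained in gcn5-/- cells, 7 overlapped none, PYK2 being the exception.

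Some promoter sites also lay before a neighbouring gene. Of the 39 genes, 17 had a divergent gene upstream. A promoter site that also lay in the 500 bp window of that divergent gene was found at 9 of the 17 in sba1-/- cells, 8 in gcn5-/- cells and 5 in wild-type cells. Over all genes with a divergent gene upstream the shares were 37.3% in sba1-/- cells, 40.1% in gcn5-/- cells and 38.0% in wild-type cells. In every list this held for GLK1 with PDI1 (616 bp apart), EMI2 with GRH1 (762 bp), PFK26 with MOB1 (653 bp), and TDH1 and PGM2 with small unnamed genes. It also held in sba1-/- cells for ENO1 with PUP2, TKL2 with TEF2, TDH2 with MET3 and ENO2 with the unnamed YHR173C. In gcn5-/- cells it held besides for TDH2 and ENO2 with the same neighbours and for PGK1 with ADP1.

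Among the genes with a promoter site in both lists compared, the sites were mostly wider in the deletion strains, and for sba1-/- cells this was also so over all genes. At 14 of 19 genes the widest promoter site was wider in sba1-/- cells, against 60.1% of all genes with a site in both lists. The median width was 982 bp in sba1-/- cells and 519 bp in wild-type cells, and over all such genes 858 bp in sba1-/- cells and 480 bp in wild-type cells. In gcn5-/- cells it was wider at 15 of 20 genes, against 50.0% of all genes, with medians of 509.5 and 483 bp in gcn5-/- cells and wild type, and of 439 and 385.5 bp over all such genes. FBA1, TDH1, ENO2 and PGM2, whose wild-type sites were 132 bp or less, had a widest promoter site of 483, 1717, 1495 and 726 bp in sba1-/- cells. GCR1 ran against this, with 65 bp in sba1-/- cells, 196 bp in gcn5-/- cells and 1012 bp in wild-type cells.

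**Figure D4:**
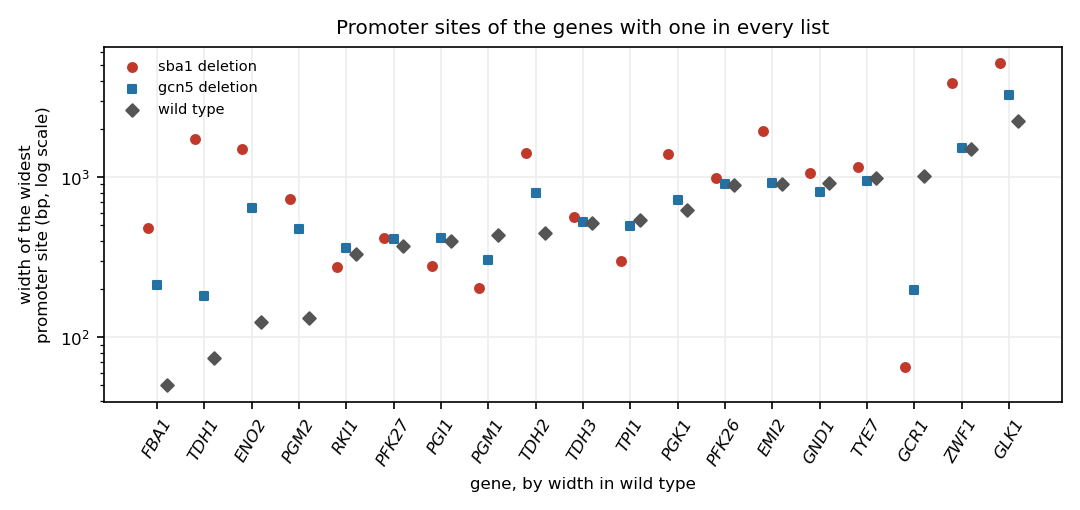
Width of the widest promoter site in bp, on a log axis, in sba1-/- cells, gcn5-/- cells and wild type, for the 19 genes with a promoter site in every list, ordered by wild-type width. At TDH1 the widths are 1717, 180 and 74 bp, and at GCR1 the order is reversed.

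Along the gene, coverage in each list was higher upstream than at the 3' end of the coding sequence. Averaged over the 39 genes, the 500 bp upstream were covered at 52.1% in sba1-/- cells, 41.1% in gcn5-/- cells and 29.2% in wild-type cells. With the coding sequence cut into 3 equal parts, the first was covered at 40.9% in sba1-/- cells, 17.1% in gcn5-/- cells and 10.9% in wild-type cells. The last part was covered at 20.3% in sba1-/- cells, 5.59% in gcn5-/- cells and 2.43% in wild-type cells. For all protein-coding genes the first part had 16.0% in sba1-/- cells, 10.3% in gcn5-/- cells and 10.3% in wild-type cells, and the last part 12.1%, 7.30% and 7.0%. In each list, wild type included, the drop between first and last part was thus larger in the 39 genes than in all genes. A single site joined promoter window and coding sequence at 20 genes in sba1-/- cells, 14 in gcn5-/- cells and 9 in wild-type cells. These are 51.3%, 35.9% and 23.1% of the 39 genes, against 21.4% of all genes in sba1-/- cells, 18.8% in gcn5-/- cells and 19.6% in wild-type cells.

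**Figure D5:**
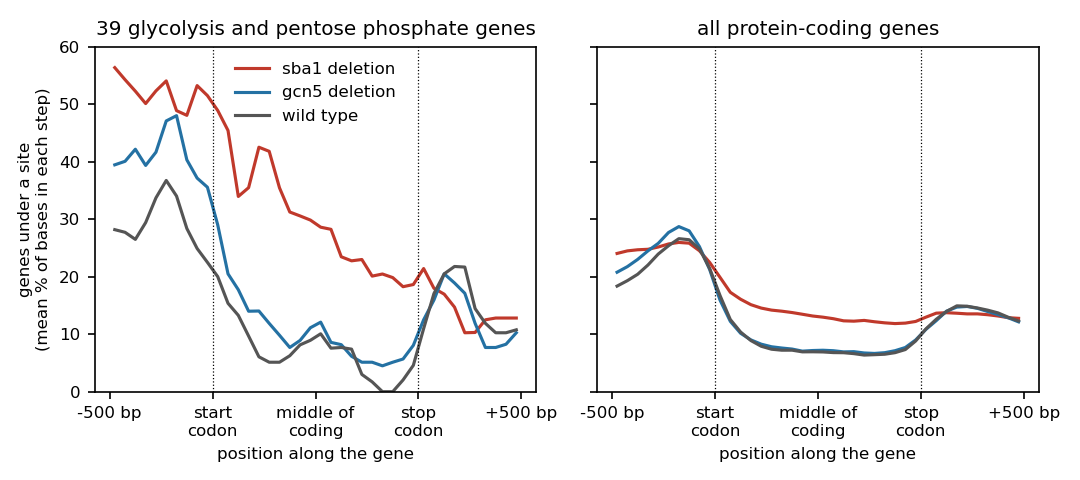
Mean share of bases under sites in percent, in 50 bp steps over the 500 bp before the start codon, 20 equal parts of the coding sequence and 50 bp steps over the 500 bp after the stop codon, for the 39 genes (left) and for all protein-coding genes (right). In the left panel the line of sba1-/- cells lies above the others through the coding sequence; past the stop codon the lines cross, and it lies below both others between 100 and 300 bp.

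Set directly against gcn5-/- cells, sba1-/- cells had a coding coverage at least 25 points higher at 17 of 39 genes, 43.6% against 10.5% of all genes, and at least 25 points lower at 0, against 1.55%. RPE1 differed by 82.7 points, TDH1 by 68.6, TKL2 by 66.9 and PGK1 by 59.5, all higher in sba1-/- cells. HXK1, PGI1, PFK27, PGM1 and GCR1 were lower in sba1-/- cells, with differences down to -11.1 points at PFK27.

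Genes beside these pathways were counted in the same way. Of 14 genes of gluconeogenesis, the glycerol branch, neighbouring sugar phosphate steps and general regulators, 6 were at least 25 points above wild type in sba1-/- cells and 1 in gcn5-/- cells. These are 42.9% and 7.14% of the 14, near the 43.6% and 5.13% of the 39 genes. Among all protein-coding genes the shares were 11.9% and 2.00%, so the higher share in sba1-/- cells was not particular to the 39 genes. GPD1 and GPD2, glycerol phosphate dehydrogenases, were among the 6: GPD1 was covered at 80.9% in sba1-/- cells, 18.6% in gcn5-/- cells and 23.6% in wild-type cells, and GPD2 at 72.6%, 25.2% and 7.86%. The largest differences among the 6 were those of SHB17 and SOL2, taken here as neighbouring pentose phosphate genes. SHB17 was covered at 100%, 3.43% and 0.245%, and SOL2 at 100%, 61.3% and 3.48%, in sba1-/- cells, gcn5-/- cells and wild type. The 14 genes are thus not unrelated to the 39. FBP1, the glucose-repressed gluconeogenic bisphosphatase, was covered at 39.5% in sba1-/- cells, 0% in gcn5-/- cells and 0% in wild-type cells. The regulators RAP1, REB1 and STB5 stayed at or below 3.99% in every list.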

How the data were processed

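DNase-seq site lists of 3 libraries were used, 1 per strain; groups follow the genotype in the labels. Per the submitters' processing notes, Bowtie 0.12.7 and sacCer3 were used; the sources used here do not give the site caller, its threshold or the DNase I level sequenced. Each list that the authors deposited holds position, name and a score of unstated scale, used only to rank sites within a list. Start codons and gene ends came from the RefSeq gene table of assembly R64, which was treated as identical to sacCer3 in sequence, with strand read from the systematic name; all 39 names matched. Positions are 1-based, and an intron counts as part of the gene.

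Overlapping sites were merged before bases were counted. A coverage difference of 25 points served as a fixed rule of size in place of a test. The members, lists and rules were chosen with earlier results of these data known. All members whose promoter call differed, or whose coverage differed by 25 points, are named, with the 5 highest wild-type coverages and those with no site. The steps were tested on simulated data derived from wild-type sites. Alternatives covered window, overlap, stricter, equal-sized and merged lists, site width, and the coverage and difference thresholds. Promoter sequences and motifs were planned and not analysed here. The code ran in Python 3.11.15 with pandas 2.3.3, numpy 2.4.6, matplotlib 3.10.9 and scipy 1.17.1.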

Additional observations from a re-analysis of the deposited data

Results flagged for a closer look

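At 3 genes coding coverage differed from wild type in opposite directions in the deletion strains. FBA1 was 34.7 points higher in sba1-/- cells and differed by -3.33 points in gcn5-/- cells. PFK2 was 24.6 points higher in sba1-/- cells and differed by -1.15 points in gcn5-/- cells. GND1 was 13.5 points higher in sba1-/- cells and differed by -3.27 points in gcn5-/- cells. These differences between strains were not tested, since each strain has 1 library, and at none of the 3 genes did both values pass 5 points.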

How the results depend on the processing

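No paired analysis was possible because each strain has 1 library. Main counts and shares were recomputed under the alternatives. Of these, 84 values stayed within 1.5 times the reported count, or inside the exact interval over bases of the reported share. The other 36 did not, and the cause was not tested unless given. That interval treats bases under the same site as independent, so it is too narrow, and small shifts of a share fell outside it. The shares of all genes that lost or gained a promoter site under the alternatives are not given here. With a 250 bp window 1 gene lost its promoter site in sba1-/- cells and 2 in gcn5-/- cells. With site midpoints in the window 8 and 2 of the 14 genes with one in wild-type cells did, and 16 genes had a promoter site in sba1-/- cells. With equal numbers of best-scored sites 1 and 0 did, and wild-type sites covered 7.48% of coding bases. In the better-scored 50% of each list, 5 genes lost a promoter site in sba1-/- cells and 5 gained one in gcn5-/- cells. There 11 genes passed the 25-point rule in sba1-/- cells, 28.2% against 10.6% of all genes. The 6 that fell below it were FBA1, GND2 and GPM1, at 0 points, and TDH3, EMI2 and TAL1, at 10.3, 10.5 and 16.4 points. Coding bases covered in these lists were 20.9% in sba1-/- cells, 8.23% in gcn5-/- cells and 6.86% in wild-type cells.

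With every site set to 250 bp, 18 genes had a wild-type promoter site, of which 6 lost it in sba1-/- cells and 2 in gcn5-/- cells. At that width 0 genes reached 50% coverage in any strain, but 1 such site is too short to cover 50% of even the shortest gene, RPE1 (717 bp). The 25-point rule then took 3 genes in sba1-/- cells and 0 in gcn5-/- cells, 7.69% and 0%, against 3.65% and 1.27% of all genes. Coding bases covered were then 11.0% in sba1-/- cells, 5.82% in gcn5-/- cells and 4.29% in wild-type cells. ZWF1 reversed there, to -16.5 points in sba1-/- cells against wild type, by construction, since the centre of its 3861 bp site lies outside the gene. Merging sites within 150 bp gave 30.6% in sba1-/- cells and 8.37% in wild-type cells. At 75% coverage 1 gene was counted in gcn5-/- cells; at 25% there were 21 in sba1-/- cells, 4 in gcn5-/- cells and 2 in wild-type cells. At 10 points 6 genes passed in gcn5-/- cells. At 50 points 8 passed in sba1-/- cells and 0 in gcn5-/- cells. The shares of all genes at these changed coverage and difference thresholds are not given here, so these counts have no background beside them. Without the TDH and ENO genes, an alternative chosen after seeing the data, coding bases covered were 26.9% in sba1-/- cells, 12.2% in gcn5-/- cells and 8.62% in wild-type cells. Read depth is unknown, so an unlisted site is not shown to be closed chromatin.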

Other observations

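Beyond the stop codon the strains did not differ as they did within the genes. Averaged over the 39 genes, the 500 bp downstream were covered at 14.3% in sba1-/- cells, 13.1% in gcn5-/- cells and 15.0% in wild-type cells, where all protein-coding genes had 13.3%, 13.4% and 13.5%. Against wild type, the downstream coverage was higher at 9 genes and lower at 8 in sba1-/- cells, and higher at 9 and lower at 3 in gcn5-/- cells. Over all genes, 14.0% were higher and 20.9% lower in sba1-/- cells, and 13.9% higher and 16.8% lower in gcn5-/- cells. Single genes differed in either direction. PFK2 had 32.2% of its downstream 500 bp covered in sba1-/- cells, 81.2% in gcn5-/- cells and 80.2% in wild-type cells, while its coding coverage was higher in sba1-/- cells. GPM1 had 81.2% in sba1-/- cells, 0% in gcn5-/- cells and 56.0% in wild-type cells. PFK27 had 40.2% in sba1-/- cells and 0% in both other lists. SOL4 was flanked by a site that covered 100% of its downstream 500 bp in sba1-/- cells, 98.8% in gcn5-/- cells and 98.0% in wild-type cells, with almost none of it in the coding sequence.

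ENO1, GND2 and GCN5, the gene deleted in gcn5-/- cells, lie close together on chromosome VII, GCN5 starting at 996869 and GND2 ending at 1006102. In sba1-/- cells coding coverage was 29.4% at GCN5, 29.6% at ENO1 and 36.1% at GND2. It was 0% at all 3 in wild-type cells. In gcn5-/- cells it was 0% at ENO1 and GND2, and also at GCN5, where the gene is deleted and the value is no observation of chromatin.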
